A study of Mus musculus with 3 samples.

Results

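The genes described here encode mitochondrial ribosomal proteins. They were chosen by gene symbol: every non-control probe whose transcript accession mapped to a symbol beginning with Mrpl or Mrps and a number. The rule found 78 genes (49 Mrpl, 29 Mrps) among the 20279 genes with a named probe, on 99 probes. They lay on 17 chromosomes. Of these genes, 57 had 1 probe and 21 had 2. Of the 84 matching symbols in the RefSeq table, all 78 protein-coding genes had a probe and the 6 pseudogenes had none. Copies of Mrpl23, Mrpl27, Mrpl48 and Mrps36 are among those pseudogenes, so signal on the probes of these 4 genes could include a copy and their values are uncertain.

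Mitochondrial ribosomal proteins are encoded in the nucleus, made in the cytosol and imported into the mitochondrion, where they assemble with mitochondrial rRNA into the mitoribosome. That ribosome translates the few messages of the mitochondrial DNA, all of them for core subunits of the respiratory chain and the ATP synthase. Genes named Mrpl encode large-subunit proteins and genes named Mrps small-subunit proteins, with exceptions such as Mrps30 and Mrps18a, which sit in the large subunit. Some members descend from bacterial ribosomal proteins and others exist only in mitochondria. In bone-forming cells, mitochondrial respiration has been studied alongside glycolysis as a source of energy during differentiation.

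The study profiled primary mesenchymal stem cells (MSCs), stromal cells of the bone marrow that can form bone, cartilage or fat, from male mice aged 8 weeks. No genotype or strain was given in the labels. The 3 groups were MSCs at day 0, cells induced for 3 days and cells induced for 21 days, and induction meant adding ascorbic acid (50 μg/mL) and beta-glycerophosphate (10 mM) to the serum-containing growth medium that all 3 groups shared. Each group was 1 Cy3 array, so there was no replicate, no test between days was possible and every difference below is between single arrays. Whether cells of several mice were pooled was not stated. Slide 1 and scan 1 held the arrays of day 21 and day 0, and slide 2 and scan 2 held that of day 3, whose slide and day therefore cannot be told apart.

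Levels are log2 values relative to the 75th percentile of each array's non-control spots, and differences are log2 differences of these levels. For a comparison to include a gene, the scanner software (Agilent Feature Extraction) had to mark its probe as well above background on both arrays. By that mark 60.3% of all named genes were detected on all 3 arrays, against 77 of the 78 members. Mrpl21, a large-subunit protein, was the exception: its only probe was not well above background on any array. Signals of the other 77 ran from 91.9 to 29911 intensity units at day 0, from 101.9 to 28901 at day 3 and from 96.6 to 24490 at day 21. Probes spotted 10 times on each array gave a technical SD of 0.20, 0.20 and 0.18 for a difference between day 3 and day 0, day 21 and day 0, and day 21 and day 3. Within the members' signal range that SD was 0.11, 0.10 and 0.10, and the median error SD of a member's difference by Feature Extraction's own error model was 0.20 in each comparison. Neither SD includes any spread between cultures or mice.

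The cell labels were checked against marker lists. Of 8 osteoblast markers 4, 6 and 7 were well above background at day 0, 3 and 21, with Col1a1 and Runx2 detected on all 3 arrays and Sp7 on none. Their summed level, as multiples of the 75th percentile, was 362, 389 and 293. This sum mostly follows Col1a1, by far the brightest of them, with levels of 8.48, 8.55 and 8.01. For day 21 against day 0, Col1a1 was at -0.47 and Runx2 at -0.37, whereas Spp1 was at 2.74 and Bglap2 at 3.58. Alpl and Ibsp were detected at day 3 and day 21 but not at day 0, and Dmp1 at day 21 only. Of 8 adipocyte markers 5, 8 and 8 were detected, and their summed level was 8.24, 39.6 and 1102 at day 0, 3 and 21. All 7 stromal and all 4 chondrocyte markers were detected on each array, with summed levels of 387, 699 and 913 for the stromal list and 71.6, 69.1 and 314 for the chondrocyte list. At day 21 the chondrocyte sum mostly follows Comp, with levels of 1.33, 3.86 and 8.00. For day 21 against day 0, Sox9 was at 1.24, whereas Col2a1 was at -0.32 and Acan at -0.97. All 8 markers of cycling cells were detected on each array, and their summed level was 99.6, 51.4 and 7.93. Probes for the leukocyte marker Ptprc and the macrophage marker Adgre1 failed the above-background mark on all 3 arrays, while 3 of 5 such markers (Csf1r, Lyz2 and Itgam) were detected on each. These marker levels moved with the day, and their part in the results below was not tested. In a bulk sample, fewer cells of a type and less RNA per cell cannot be told apart.

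At day 3 the mitoribosomal genes stood close to their day 0 levels as a group. The median difference was 0.00 over 77 measured members, with quartiles at -0.13 and 0.16, against a median of -0.08 over all 12455 measured genes, with quartiles at -0.47 and 0.31. No member was 2-fold higher or lower, against a background of 7.73% of all measured genes past 2-fold upward and 7.85% downward. At 1.5-fold, 1 member was higher (Mrps11) and 1 lower (Mrpl47), against backgrounds of 14.9% and 19.2%. The members split evenly in sign, with 39 above 0 (background 44.2%) and 38 below (background 55.8%). This result depended on the scaling: with spike-in probes as the scale the members' median was -0.55, 36 members were 1.5-fold lower (46.8%, against 53.4% of all measured genes) and 0 higher (against 6.58%), and the median of all measured genes was -0.63.

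Mrps11, the homologue of a bacterial small-subunit protein, was the member most raised at day 3, with levels of 1.58, 2.27 and 1.52 at day 0, 3 and 21. On the scale used here, its day 3 value was above both others by more than 3 times the technical SD of a difference. The day 0 and day 21 values lay 0.05 apart. Mrps16, another small-subunit protein of bacterial descent, had the same shape with levels of 4.96, 5.50 and 4.75. Spike-in scaling shifted the median of all measured genes by -0.55 at day 3 against day 0, where Mrps11 was at 0.69 and Mrps16 at 0.54. A shift of that size leaves Mrps11 above its day 0 level but puts Mrps16 level with day 0. The size of the Mrps11 peak and the presence of the Mrps16 peak therefore depend on scaling. Next came Mrps34, with a difference of 0.49, Mrps35 with 0.44, Mrpl27 with 0.42 and Mrpl34 with 0.40. Mrps34 and Mrps35 are small-subunit proteins found only in mitochondria, and Mrpl27 and Mrpl34 are large-subunit proteins with bacterial homologues. Mrpl45 and Mrpl48 followed, each with 0.37.

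At the low end, Mrpl47, which corresponds to a bacterial protein near the exit of the peptide tunnel, had levels of 3.19, 2.60 and 2.29 at day 0, 3 and 21. Its difference of -0.59 at day 3 had the same sign as that of its second probe (-0.39). Mrps22, a mitochondria-specific small-subunit protein, was at -0.39, Mrps18b at -0.38, and Mrpl3, which in bacteria reaches towards the peptidyl transferase centre, at -0.36. Mrpl50 was at -0.32, although its second probe gave 0.07, and Mrps2 at -0.31. Beyond 2 times the technical SD (0.39) lay 6 members above and 1 below, where 21.4% and 29.1% of all measured genes did so.

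**Figure D1:**
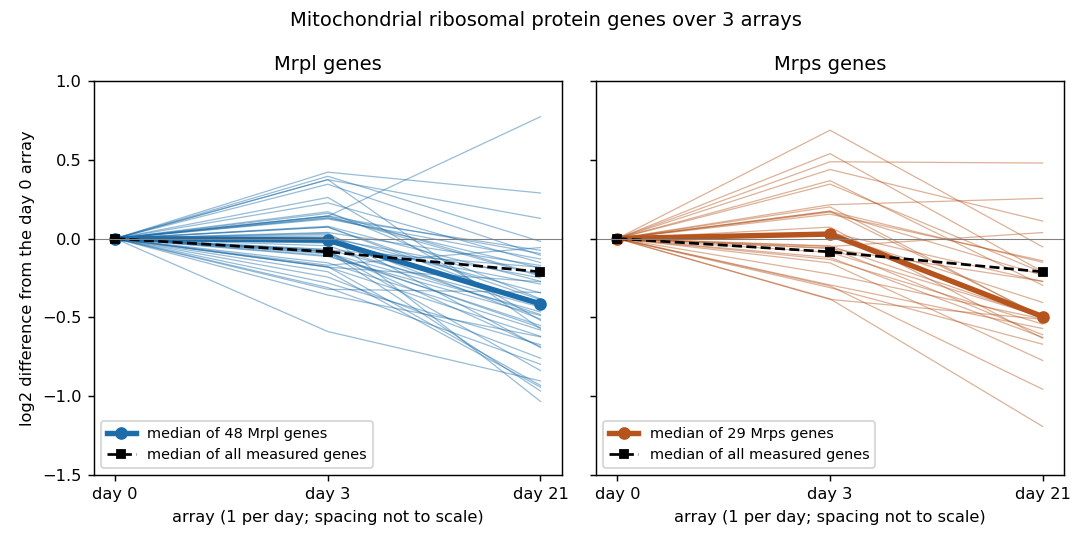
Log2 difference of each measured member from the day 0 array (vertical axis) at day 0, 3 and 21 (horizontal axis, 1 array each), for 48 Mrpl genes on the left and 29 Mrps genes on the right. Thin lines are genes, thick lines their median and dashed lines the median of all measured genes; the members' medians stay near 0 at day 3 and reach -0.41 (Mrpl) and -0.50 (Mrps) at day 21, below the -0.21 of all genes.

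At day 21 most mitoribosomal genes were lower than at day 0, on the scale used here. The median difference was -0.43 (quartiles -0.61 and -0.19), which is 25.7% less signal, and 70 of 77 members were below 0. Over all 12387 measured genes the median was -0.21 (quartiles -0.75 and 0.40) and 60.6% were below 0, with 39.4% above. At 2-fold, 2 members were at least 2-fold lower (2.60%, against a background of 16.8%) and 0 at least 2-fold higher (background 12.8%). At 1.5-fold 20 were lower (26.0%, against 31.8%) and 1 higher (1.30%, against 19.9%). These shares of members lay below the backgrounds on this scale, but with spike-in scaling 58.4% of members were 1.5-fold lower, against 43.8% of all measured genes. The distance between quartiles was 0.42 for the members against 1.14 for all measured genes. Beyond 2 times the technical SD (0.40) lay 40 members below and 2 above, or 51.9% below, where 40.4% of all measured genes lay below.

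The size of this shift depended on how the arrays were scaled. With the 75th percentile of detected spots only, the members' median was -0.18, 8 members were 1.5-fold lower (10.4%, against 21.8% of all measured genes) and 2 higher (2.60%, against 26.7%), and the median of all measured genes became 0.04; spike-in scaling gave -0.68 and quantile normalization -0.14. The members' median minus that of all measured genes was -0.22, and it ranged from -0.23 to -0.06 over the settings tried. Among the 2800 measured genes with a mean level between the members' quartiles (2.69 to 5.05), the median was -0.28 and 65.6% were below 0. The 39 members in that range had a median of -0.49 and 37 of them were below 0.

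Mrps18b, 1 of the 3 mammalian proteins related to a single bacterial small-subunit protein, was the most lowered member. It had levels of 5.72, 5.34 and 4.53 at day 0, 3 and 21, and was 2.29-fold lower at day 21 than at day 0, with an error SD of 0.20 on the log2 scale. Its second probe gave -1.01 against -1.19 on the first. The related Mrps18a and Mrps18c were at -0.23 and -0.54. Mrpl52, a mitochondria-specific large-subunit protein, had levels of 6.71, 6.73 and 5.67, so that the day 0 and day 3 values lay together and day 21 stood 2.05-fold below day 0. Both were within 2-fold under scaling to detected spots, where 0 members were 2-fold lower.

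Among the next lowest, Mrpl54 had levels of 5.62, 5.54 and 4.66 and Mrpl57 had 6.57, 6.36 and 5.62 at day 0, 3 and 21; both are large-subunit proteins found only in mitochondria. Mrps10, of bacterial descent, had 4.79, 4.49 and 3.83. For Mrpl15, also of bacterial descent, 2 probes gave -0.93 and -0.90 for day 21 against day 0, and Mrpl47 was at -0.90, with its second probe lower still. Mrpl30 followed with -0.84, Mrpl37 with -0.80, Mrps15 with -0.77, Mrpl53 with -0.76, Mrpl19 and Mrpl32 with -0.69 each, and Mrpl20 and Mrps2 with -0.67 each. The others past 1.5-fold were Mrps5, Mrps7, Mrpl3, Mrpl12 and Mrps25, between -0.63 and -0.61. In all 20 of them day 21 was the lowest of the 3 arrays.

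The members above 0 at day 21 were 7. Mrpl49 was the highest at 0.77, with levels of 2.15, 2.29 and 2.92 at day 0, 3 and 21, but its second probe gave levels of 2.36, 2.40 and 1.97 and a difference of -0.39. The value of this gene is therefore unsettled, and with probes averaged 0 members were 1.5-fold higher. Mrps34, with a single probe, was at 0.48 and had levels of 5.00, 5.49 and 5.48, so its day 3 and day 21 values lay together above day 0. Mrpl27 was at 0.29 on its first probe and 0.09 on its second. Mrps6 was at 0.26, Mrpl48 at 0.13, Mrps35 at 0.11 and Mrps31 at 0.04, and the last 3 of these are within the technical SD.

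**Figure D2:**
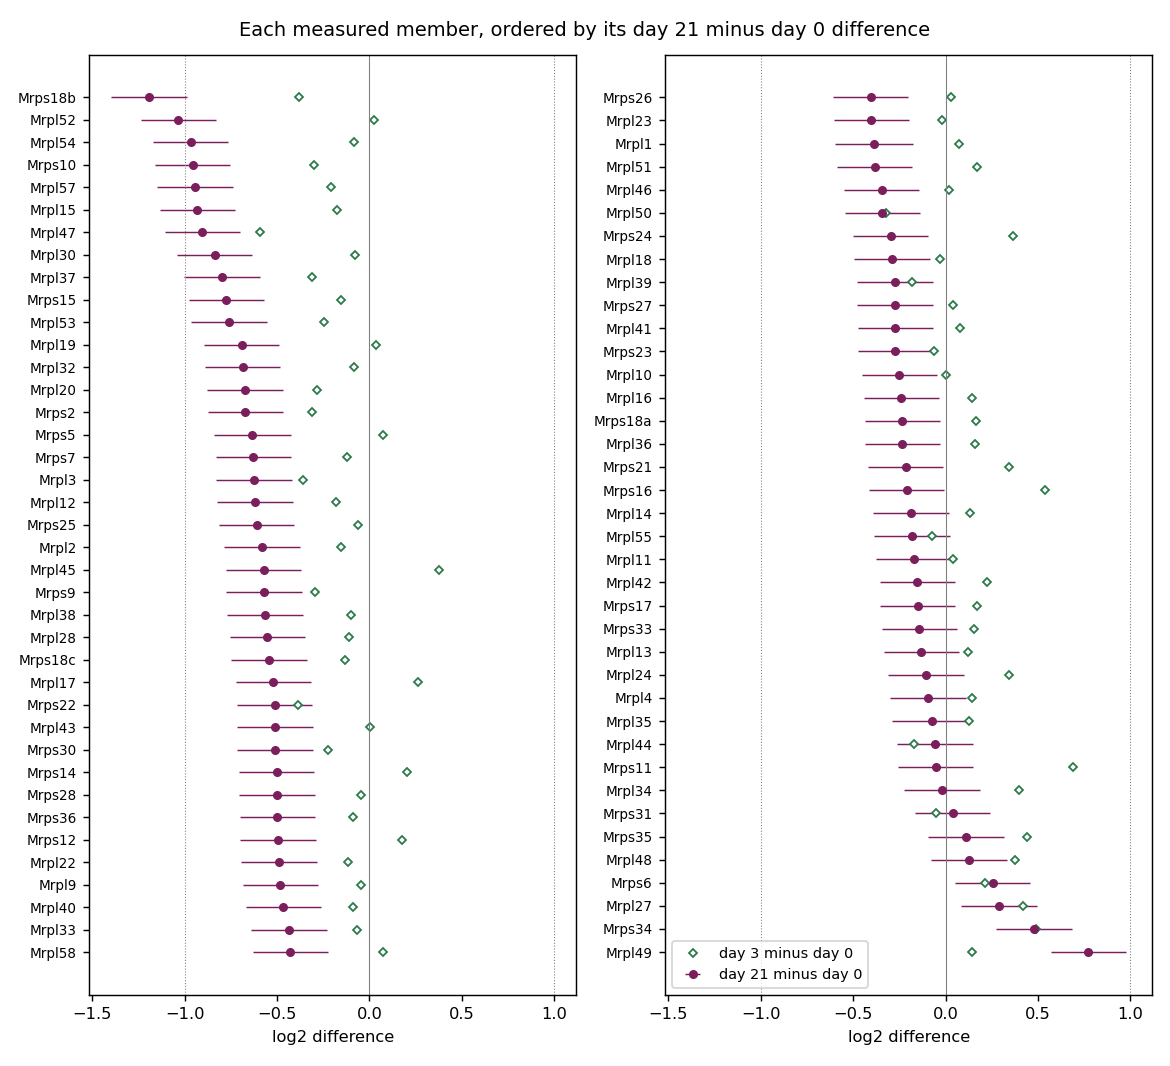
Log2 difference of each of the 77 measured members (rows, by gene symbol, lowest first), with day 21 minus day 0 as filled points and day 3 minus day 0 as open diamonds. Bars are the error SD of the day 21 difference by Feature Extraction's error model, and dotted lines mark 2-fold; Mrps18b and Mrpl52 lie past the lower line, and 7 members lie above 0.

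Most of the next members have known places in the ribosome. In the stalk that recruits translation factors, Mrpl12, which also binds the mitochondrial RNA polymerase, had levels of 5.13, 4.95 and 4.51 at day 0, 3 and 21. Its anchor Mrpl10 had 2.89, 2.89 and 2.64, and Mrpl11, at the base of the stalk, had 5.09, 5.13 and 4.92. For day 21 against day 0, Mrpl12 was at -0.62 and Mrpl11 at -0.17. Mrpl10 was at -0.25, although its second probe gave 0.01. In the decoding and message-binding part of the small subunit, Mrps12, the protein of the decoding centre, had 5.53, 5.71 and 5.04, and Mrps5, near the entry of the message, had 0.30, 0.37 and -0.33. Both were highest at day 3 and lowest at day 21 on the scale used here.

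Of 6 measured members listed for the exit tunnel, 6 were below 0 at day 21 against day 0, where 60.6% of all measured genes were. Their median was -0.34. Mrpl47, described above as near the tunnel exit, was not on that list and was at -0.90. Mrpl45, which contacts the inner membrane, had levels of 3.53, 3.90 and 2.96, whereas Mrpl44, a neighbour with a fold related to a ribonuclease, had 1.78, 1.61 and 1.73 and differed by -0.06. Of 7 central protuberance members, the knob on top of the large subunit, 5 were below 0, a share of 71.4%, and the median was -0.35; Mrpl27 and Mrpl48 were above 0. Mrpl58, which is also known as a hydrolase that frees stalled peptides, was at -0.43. Mrpl3 was at -0.62, Mrps7, a protein of the small-subunit head, at -0.63 with -0.18 on its second probe, and Mrps22 at -0.51. Mrps30, a large-subunit protein despite its name, was at -0.51. Mrps36, which is known as a subunit of the oxoglutarate dehydrogenase complex and was given no place in the ribosome here, was at -0.50. Its second probe gave -0.16.

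By subunit and ancestry, the medians for day 21 against day 0 were -0.42 over 28 large-subunit proteins named after a bacterial homologue and -0.41 over 22 named as mitochondria-specific. In the small subunit they were -0.50 over 16 proteins named after a bacterial homologue and -0.27 over 10 named as mitochondria-specific. This naming places Mrps18a and Mrps18b with the mitochondria-specific proteins, although both are related to a bacterial protein. Mrps36 was placed in none of the 4 groups. Of these 4 groups 27, 20, 15 and 7 members were below 0, which leaves 1, 2, 1 and 3 above. The shares below 0 were 96.4%, 90.9%, 93.8% and 70.0%, against 60.6% of all measured genes, with 39.4% above. The last of the 4 shares was the nearest to that of all measured genes. The ranges overlapped broadly, and no test of a difference between the groups was possible. The lowest member, Mrps18b, and 3 of the 7 members above 0 were in the mitochondria-specific group of the small subunit.

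**Figure D3:**
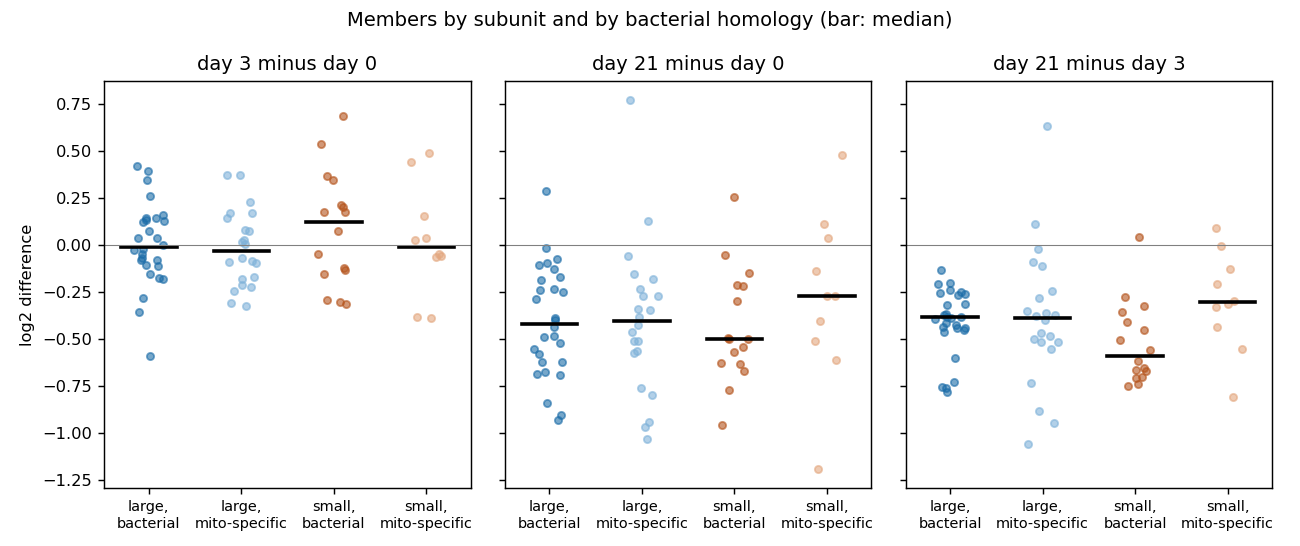
Log2 differences (vertical axis) of the measured members in 4 groups, large or small subunit and named after a bacterial homologue or as mitochondria-specific, in 3 panels for the 3 comparisons. Points are genes and bars medians; in the day 21 minus day 3 panel the medians are -0.39, -0.39, -0.59 and -0.30 from left to right.

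Most members were also lower at day 21 than at day 3, on the scale used here. The median for day 21 against day 3 was -0.40 (quartiles -0.55 and -0.28), 73 of 77 members were below 0 and 70 were below the median of all measured genes. That median was -0.10 over 12739 genes (quartiles -0.48 and 0.31), of which 57.4% were below 0 and 42.6% above. At 2-fold 1 member was lower (background 7.11%) and 0 were higher (background 7.75%); at 1.5-fold 18 were lower (23.4%, background 19.6%) and 1 was higher (background 15.2%). The share 1.5-fold lower was above the background on this scale and below it on 3 others. Scaling to detected spots gave a median of -0.18 with 4 members 1.5-fold lower (5.19%, against 11.4% of all measured genes), spike-in scaling gave -0.10 with 3 (3.90%, against 9.23%), and quantile normalization gave -0.22 with 9 (11.7%, against 15.5%). Because the day 3 array was on its own slide, its slide and day cannot be told apart in this comparison.

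Mrpl52 was at -1.06 for day 21 against day 3, Mrpl45 at -0.95, Mrpl54 at -0.88, Mrps18b at -0.81, Mrpl17 at -0.78 and Mrpl30 at -0.76. Mrps16 (-0.75), Mrps11 (-0.74), Mrps14 (-0.70) and Mrps24 (-0.66), all of bacterial descent, had their highest level at day 3 on the scale used here. The 4 above 0 were Mrpl49 (0.63, with -0.43 on its second probe), Mrpl44 (0.11), Mrps31 (0.09) and Mrps6 (0.04). Over the 3 arrays, day 21 was the lowest for 69 of 77 members (89.6%), against 48.8% of the 12221 genes detected on all arrays. Day 3 was the highest for 37 members and day 0 for another 37, against 23.1% and 47.5% of those genes. Of the members, 36 ran downward from day 0 through day 3 to day 21 (46.8%, against 35.6% of those genes). Another 33 were highest at day 3 and lowest at day 21 (42.9%, against 13.2%). These orders were counted on the scale used here only and depend on it. With spike-in scaling 76 of 77 members were below 0 at day 3 against day 0, and 55 at day 21 against day 3.

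Promoter sequences were examined because most members were lower at day 21 than on the other arrays. RefSeq promoters of GRCm38.p6, each from 250 bases before to 50 after the gene's start, were at hand for 69 of the 78 members. Shown here are those of the 2 lowest and the 2 highest members at day 21 against day 0 that had an entry: Mrps18b (chr17:35916391-35916690, minus strand), Mrpl52 (chr14:54426659-54426958, plus strand), Mrpl49 (chr19:6057706-6058005, minus strand) and Mrpl27 (chr11:94653541-94653840, plus strand). Each reads 5′ to 3′ along the gene, and capitals mark matches to the motifs described after them.
Mrps18b: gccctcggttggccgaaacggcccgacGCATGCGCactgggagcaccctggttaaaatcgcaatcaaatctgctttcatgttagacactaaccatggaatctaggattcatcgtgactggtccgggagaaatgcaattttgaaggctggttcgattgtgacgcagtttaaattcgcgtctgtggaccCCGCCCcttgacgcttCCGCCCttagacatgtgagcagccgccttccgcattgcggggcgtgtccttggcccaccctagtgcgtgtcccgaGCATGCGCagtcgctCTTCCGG
Mrpl52: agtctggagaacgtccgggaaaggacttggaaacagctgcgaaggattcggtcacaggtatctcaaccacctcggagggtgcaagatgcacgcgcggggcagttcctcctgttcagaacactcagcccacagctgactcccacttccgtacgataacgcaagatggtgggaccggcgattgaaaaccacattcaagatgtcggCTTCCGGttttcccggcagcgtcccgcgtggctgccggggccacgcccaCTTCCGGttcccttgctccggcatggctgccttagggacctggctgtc
Mrpl49: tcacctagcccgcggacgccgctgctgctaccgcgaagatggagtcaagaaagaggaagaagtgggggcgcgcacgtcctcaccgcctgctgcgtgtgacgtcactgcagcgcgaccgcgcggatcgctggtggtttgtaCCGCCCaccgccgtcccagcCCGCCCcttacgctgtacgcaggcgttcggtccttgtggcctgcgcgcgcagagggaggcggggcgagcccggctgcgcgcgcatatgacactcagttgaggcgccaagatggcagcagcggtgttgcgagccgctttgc
Mrpl27: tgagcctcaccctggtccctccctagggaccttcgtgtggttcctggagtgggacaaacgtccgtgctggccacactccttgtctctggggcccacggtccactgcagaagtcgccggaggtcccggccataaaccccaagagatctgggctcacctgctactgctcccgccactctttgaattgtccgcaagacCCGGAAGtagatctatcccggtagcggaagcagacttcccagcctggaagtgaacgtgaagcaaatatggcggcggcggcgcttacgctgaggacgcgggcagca

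The 6 motifs searched on both strands were CCGGAAG, bound by ETS factors such as GABPA, GCGCATGC for NRF1, AAGATGGCG for YY1, CACGTG for MYC and other E-box factors, GGGCGG for the SP1 family and the TATA box TATAAA. GABPA, NRF1 and YY1 are known as regulators of nuclear genes for mitochondrial proteins. The ETS motif was in 26 of 69 members' promoters (37.7%), against 12.9% of 17492 protein-coding genes and 9.93% of all 27025 genes in the table. The NRF1 and YY1 motifs were each in 8 members (11.6%), against 3.94% and 2.14% of protein-coding genes and 3.05% and 1.64% of all genes. Among 61 cytosolic ribosomal protein genes with an entry, the ETS motif was in 41.0%, the NRF1 motif in 4.92% and the YY1 motif in 6.56%, so the ETS share was not higher in the mitoribosomal genes than in these. At least 1 of these 3 motifs was in 36 members (52.2%), against 17.6% of protein-coding genes. The E-box was in 5 members (7.25%, against 8.91% of protein-coding and 8.09% of all genes), the TATA box in 5 (against 14.8% and 15.7%) and the SP1 motif in 34 (49.3%, against 49.2% and 38.2%).

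In the promoters shown, Mrps18b had 2 NRF1 matches, 2 SP1 matches and an ETS match, Mrpl52 had 2 ETS matches, Mrpl49 had 2 SP1 matches and Mrpl27 had an ETS match. The median for day 21 against day 0 was -0.43 over 25 measured members with the ETS motif and -0.40 over 43 without it, and -0.49 over 8 with the NRF1 motif and -0.40 over 60 without. For the YY1 motif it was -0.23 over 8 with and -0.47 over 60 without. These matches are descriptions of the sequence, not binding sites.

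The other genes of mitochondrial translation were taken from lists by function. All 5 mitoribosome proteins with other names were below 0 at day 21 against day 0, with a median of -0.52: Gadd45gip1 was at -0.69, Ptcd3 at -0.56, Chchd1 at -0.52, Dap3 at -0.43 and Aurkaip1 at -0.21. Of 16 translation factors 10 were below 0 (62.5%, near the 60.6% of all measured genes), 1 was 2-fold lower (6.25%, against 16.8%) and 0 were 2-fold higher (against 12.8%), with a median of -0.31. Lrpprc, which stabilises mitochondrial messages, was at -1.20, the ribosome recycling factor Mrrf at -0.77 and the elongation factor Tufm at -0.39, whereas the peptide deformylase Pdf was at 0.75. Of 25 measured genes for assembly and rRNA modification 19 were below 0 (76.0%) and 0 passed 2-fold (median -0.24), led by the GTPase Noa1 (-0.97) and the protease subunit Afg3l2 (-0.91). For mitochondrial DNA maintenance and transcription 6 of 9 were below 0 (66.7%): Polrmt, the mitochondrial RNA polymerase, was at -0.73 and Tfam, which packages the mitochondrial DNA, stood above 0 at 0.18. Of 16 measured mitochondrial tRNA synthetases 11 were below 0 (68.8%), with a median of -0.17. The shares of the last 2 lists were also near that of all measured genes.

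Among 11 measured regulators of mitochondrial gene expression, 6 were 2-fold lower at day 21 than at day 0 (54.5%, against 16.8% of all measured genes) and 0 were 2-fold higher (against 12.8%). They were the stress factors Ddit3 (-1.92), Atf5 (-1.60) and Atf4 (-1.24), the growth regulator Myc (-1.58), the coactivator Pprc1 (-1.18) and Gabpb1 (-1.14), the partner of Gabpa. Myc had levels of 1.44, 1.70 and -0.14 at day 0, 3 and 21, so its day 0 and day 3 values both stood above day 21. The motif-binding factors Nrf1, Gabpa and Yy1 were at -0.42, -0.41 and -0.01. The probe of the coactivator Ppargc1a was too dim to be called at day 0. Its day 3 level was at least 1.47-fold higher than the day 0 bound, and its day 21 level at least 6.49-fold higher. These at-least folds set the brighter level against the lowest level well above background on the day 0 array.

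Set beside a pair of related groups, the mitoribosomal genes lay between them at day 21 on this scale. Against day 0, the median was -0.43 for the members, -0.25 for 47 nuclear-encoded subunits of complexes I to V and -0.94 for 79 cytosolic ribosomal protein genes. All 79 cytosolic ribosomal protein genes were below 0 and 33 were 2-fold lower (41.8%). Of 47 complex subunits 36 were below 0 (76.6%) and 1 was 2-fold lower (2.13%). Over all measured genes 60.6% were below 0 and 16.8% were 2-fold lower. Against day 3 the medians were -0.40 for the members, -0.27 for the complex subunits and -1.04 for the cytosolic ribosomal proteins. At day 3 against day 0 the 3 medians were 0.00, -0.04 and 0.08. Probes of cytosolic ribosomal protein genes can take up RNA of near-identical copies. With 1 array a day, none of these differences between groups could be tested.

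**Figure D4:**
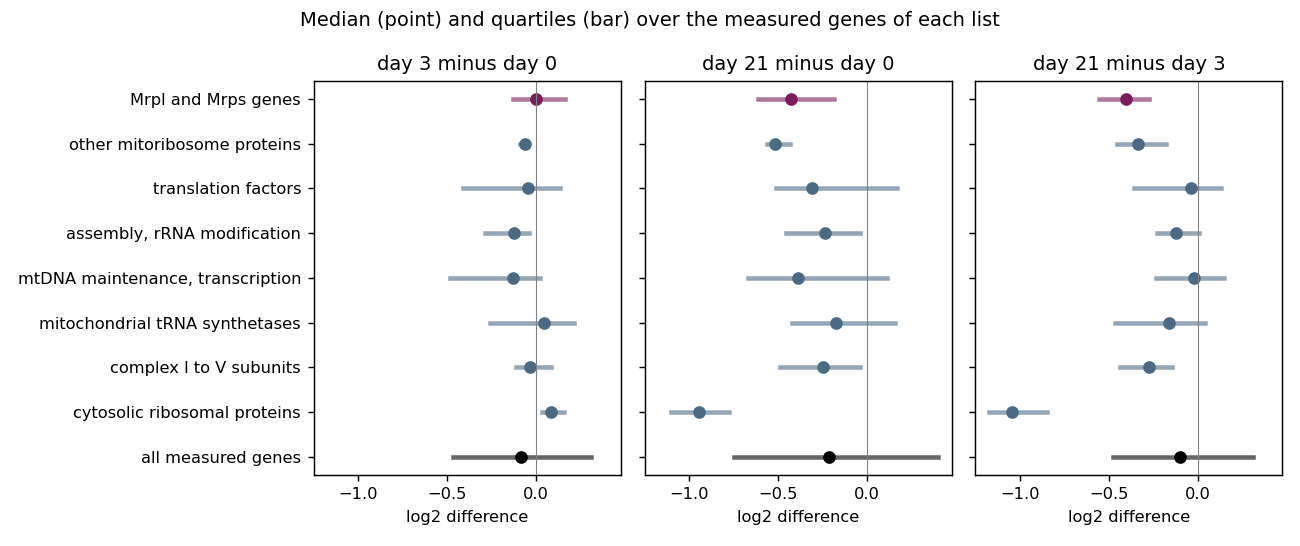
Median (point) and quartiles (bar) of log2 differences over the measured genes of each list (rows), in 3 panels for the 3 comparisons. In the day 21 minus day 0 panel the members' median of -0.43 lies between that of the complex I to V subunits (-0.25) and that of the cytosolic ribosomal proteins (-0.94), and the bar of all measured genes is the widest.

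The 20 members with 2 probes well above background gave a check within each array. For day 21 against day 0 both probes were below 0 in 16 genes, both above in 1 and opposite in 3, and the median gap between probes was 0.14. Gaps over 0.5 were found in 3 genes. Besides Mrpl49 these were Mrps23 (-0.27 and -1.14) and Mrps25 (-0.61 and, on a dim probe, 0.37). For day 3 against day 0 there were 7 genes with both probes below 0, 7 with both above and 6 opposite, and for day 21 against day 3 there were 17, 0 and 3. Probes of a gene share the RNA and the array, so they are not replicates of a day.

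**Figure D5:**
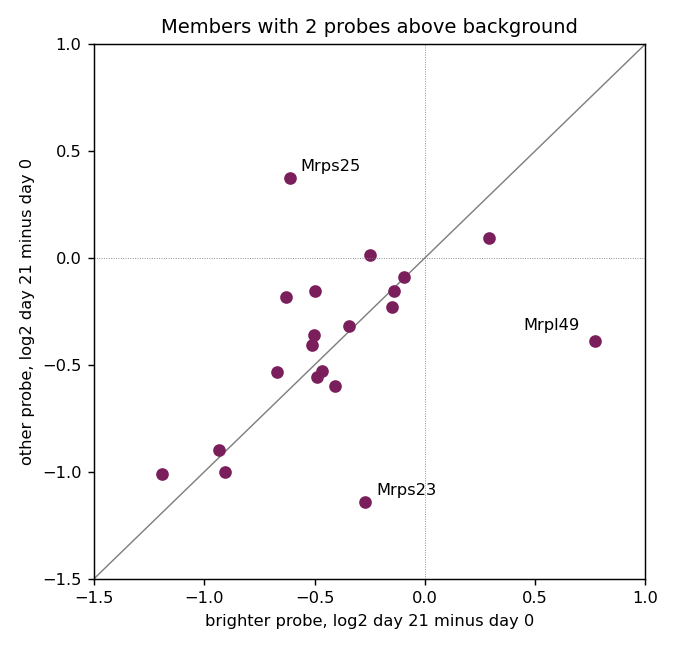
Log2 difference for day 21 minus day 0 on the brighter probe (horizontal axis) and the other probe (vertical axis) of the 20 members with 2 probes well above background, 1 point a gene, with the line of equality. Most points lie near the line below 0, and the 3 named genes have gaps over 0.5.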

How the data were processed

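The authors scanned 1-colour Cy3 arrays and deposited the intensity of each spot on a linear scale. Agilent Feature Extraction has version 10.10.1.1 in the file headers and 12.0 in the submitters' processing notes. Background subtraction and detrending within each array are recorded per the file headers. No header or label records scaling between arrays. The deposited value table matched the intensity of the scanner files (largest relative difference 0; column medians 7.35, 7.46 and 8.46 at day 0, 3 and 21), so it is linear and not centred.

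Processed signals were put on the log2 scale, relative to the 75th percentile of the array's 59305 non-control spots (172.2, 174.6 and 190.7 intensity units at day 0, 3 and 21). Spots marked as outliers were left out (200, 115 and 146), and no non-control spot was saturated. Remaining spots of a probe were averaged. Of 55664 usable probes 26755 were named through transcript accessions in a RefSeq table of GRCm38.p6. Probes were not placed by gene coordinates, because the array headers name another build. Only the chromosome of each member and the promoter regions were taken from GRCm38.p6. The probe with the highest mean level stands for a gene, and at least 50% of its spots had to be well above background. Genes were called by fixed folds of 2 and 1.5. Members named are 16 given whatever their value, the 6 highest and 6 lowest measured in each comparison, all past 1.5-fold where there are at most 20, and those with dim or disagreeing probes; other members were named after their values were seen. From the other lists up to 4 genes were named by size of the day 21 against day 0 difference, plus 7 set genes; further list genes were named after their values were seen. The members, lists and rules were chosen with earlier results of these data known. The files hold neither a gene name column nor a mean spot signal, so naming by such a column was not run and normexp used the spot median. Tools were Python 3.11.15, pandas 2.3.3, R 4.3.3 and limma 3.58.1 (normexp). The number of arrays limits the precision.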

Additional observations from a re-analysis of the deposited data

How the results depend on the processing

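The results rest on 1 array a day. Over the settings tried the members' median stayed below 0 in both comparisons of day 21, while its size, and the counts past a fold, depended on scaling. A value was taken as moved when it differed by more than the technical SD, and a count when it changed by more than 1.5 times. Relative to the main setting, the median of all measured genes shifted by -0.55, -0.25 and 0.30 under spike-in scaling (day 3 against day 0, day 21 against day 0, day 21 against day 3), by 0.03, 0.25 and 0.22 under scaling to detected spots and by 0.03, 0.13 and 0.10 under quantile normalization; the cause was not tested.

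For day 3 against day 0, spike-in scaling gave a members' median of -0.55. On that scale 1 member was 2-fold lower (against 25.7% of all measured genes), 36 were 1.5-fold lower (53.4%) and 0 higher (6.58%). In the same comparison 0 members were 1.5-fold lower under scaling to detected spots (against 18.0% of all measured genes) and quantile normalization (17.6%). The count was also 0 under normexp (13.6%) and averaged probes (19.1%).

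For day 21 against day 0, the median was -0.18 with detected spots, -0.68 with spike-ins and -0.14 with quantile normalization. Members 2-fold lower numbered 0 with detected spots (against 11.2% of all measured genes) and 5 with the median of all spots (18.6%). They numbered 11 with spike-ins (24.8%), 0 with quantile normalization (13.5%) and 1 with normexp (11.4%). With detected spots 1 member was 2-fold higher. Members 1.5-fold lower numbered 8 with detected spots (10.4%, against 21.8% of all measured genes), 45 with spike-ins (58.4%, against 43.8%) and 10 with quantile normalization (13.0%, against 25.8%). Those 1.5-fold higher numbered 2 (against 26.7%), 0 (15.1%) and 4 (22.9%) in that order, and 0 with averaged probes (19.8%).

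For day 21 against day 3, the median was -0.18 with detected spots and -0.10 with spike-ins. Members 2-fold lower numbered 0 with detected spots (against 4.12% of all measured genes) and 2 with the median of all spots (8.17%). They numbered 0 with spike-ins (3.60%) and 0 with quantile normalization (5.76%). Members 1.5-fold lower numbered 4 with detected spots (against 11.4%), 3 with spike-ins (9.23%) and 9 with quantile normalization (15.5%). With the median of all spots (against 13.5%), normexp (10.5%) or averaged probes (15.1%), 0 were 1.5-fold higher.

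The members' median minus that of all measured genes ranged from 0.00 to 0.11 for day 3 against day 0, from -0.23 to -0.06 for day 21 against day 0, and from -0.32 to -0.20 for day 21 against day 3. Keeping outlier spots, requiring detection on all 3 arrays, dropping the filter on dim probes and using the deposited value table moved none of these counts or medians past those limits. Of the 129 single-gene differences, 86 moved with detected spots, 129 with spike-ins, 43 with quantile normalization, 2 with normexp and 7 with averaged probes. Normexp was run on the spot median, a choice made after seeing the files. No paired analysis was possible because each day had a single array. Dim probes limit Mrpl21, for which no difference is given.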
